A study of Mus musculus with 13 samples.

Results

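RNA that came down with P23 from mouse macrophages was compared between cells given LPS for 2 h and untreated cells (0 h). The comparison holds 6 of the 13 libraries of the series, 3 P23 IPs per time point, and all 52 RNAs for which counts were deposited. The cells were RAW 264.7, an established mouse macrophage line, which received 10 ng/ml of E. coli LPS for 2 h or no LPS. Cells of both groups were UV-crosslinked, and cytoplasmic extract went into each IP. Beside the P23 IPs stood 3 LUC IPs of untreated cells and 2 LUC IPs of LPS-treated cells, made with an antibody against luciferase, a protein these cells do not have, and 1 input library per time point. The authors had removed a further LUC IP of 2 h as an outlier. By the paper's account the replicates were independent experiments, all on this one cell line. The paper and the sample labels name P23 antibodies of different suppliers, and whether these are the same clone was not settled here.

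P23, the product of the Ptges3 gene, is a co-chaperone of HSP90 and acts as a cytosolic prostaglandin E synthase, and the study examined it as an RNA-binding protein. LPS, a component of the outer membrane of Gram-negative bacteria, binds the TLR4 receptor complex of macrophages and switches on NF-κB target genes within hours. An RNA can gain or lose reads in an IP because its amount in the extract differs or because a different share of it is pulled down, which the P23 IP alone cannot tell apart. Fewer cells that hold an RNA and less of it per cell cannot be told apart in such bulk libraries either. The LUC IP shows the RNA that comes down without a target protein, and the input shows the RNA in the extract.

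The 52 RNAs are those the study called higher with P23 than with LUC at 0 h, and that choice was made on the same 0 h libraries used here. The choice favors high values in the P23 IPs of 0 h and low values in the LUC IPs of 0 h, and so a lower value at 2 h with P23 and a higher one with LUC. The P23 libraries held 6265 to 11866 raw counts over the 52 RNAs. These sums are not library sizes, so counts were divided by the size factor of each library, which was recovered from the deposited variance-stabilized values (0.628 to 1.02 in the P23 IPs), and are called normalized counts. edgeR's quasi-likelihood test was used between the time points, and an RNA was called at a Benjamini-Hochberg adjusted p of 0.05 or less over the 52 RNAs. Of the macrophage marker genes looked for, Tnfrsf11a had counts in every library, and most of the others were not analysed here, so the check of the cell type is a weak one. P23 0 h replicate 1 was the highest of its 3 libraries for 35 RNAs, and P23 2 h replicate 1 was the lowest of its 3 for 33.

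After 2 h of LPS, 6 RNAs rose in the P23 IP (11.5%), 21 fell (40.4%) and 25 did not pass the threshold. Pim1 mRNA, which encodes a serine/threonine kinase that promotes cell survival, rose 11.2-fold, far more than any other RNA of the table. The others that rose were the host RNA of miR-22 (Mir22hg) and the mRNAs Hlx, Cldnd1, Cisd2 and Fhl3. Among those that fell were the mRNAs of the kinesins Kif13a and Kif1b, of the transcription factors Zbtb7b and Rfx5, and of Lfng, a glycosyltransferase that modifies Notch. Kif15 mRNA and Ptges3 mRNA did not pass. The count at an unadjusted p under 0.05 was also 6 higher and 21 lower. The 2 h libraries lay wholly above the 0 h libraries for 7 RNAs (13.5%) and wholly below them for 21 (40.4%).

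The median log2 change over the 52 RNAs was -0.32 in the P23 IP and -0.13 in the LUC IP, and the median log2 ratio of the inputs was 0.01 over the 51 RNAs with counts in both. The values moved on scales made from the list itself. With TMM over the 52 RNAs the median in the P23 IP was -0.02, with 14 RNAs higher and 15 lower, and with median of ratios it was -0.05, with 13 and 15, while the sum over the list left it at -0.27, with 7 and 21. Relative to the median of the list, the log2 change was 3.79 for Pim1, 0.47 for Kif15, -1.18 for Lfng and -1.26 for Kif13a, while Kif1b, Gapdh, Ccdc115, Bcl2l2 and E2f5 lay between -0.19 and -0.07. Without P23 0 h replicate 1 and P23 2 h replicate 1, a setting chosen after seeing the data, 4 RNAs rose and 14 fell. Cldnd1, Mir22hg and Pim1 kept their rise, and 13 RNAs kept their fall, under every alternative that tested them.

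**Figure D1:**
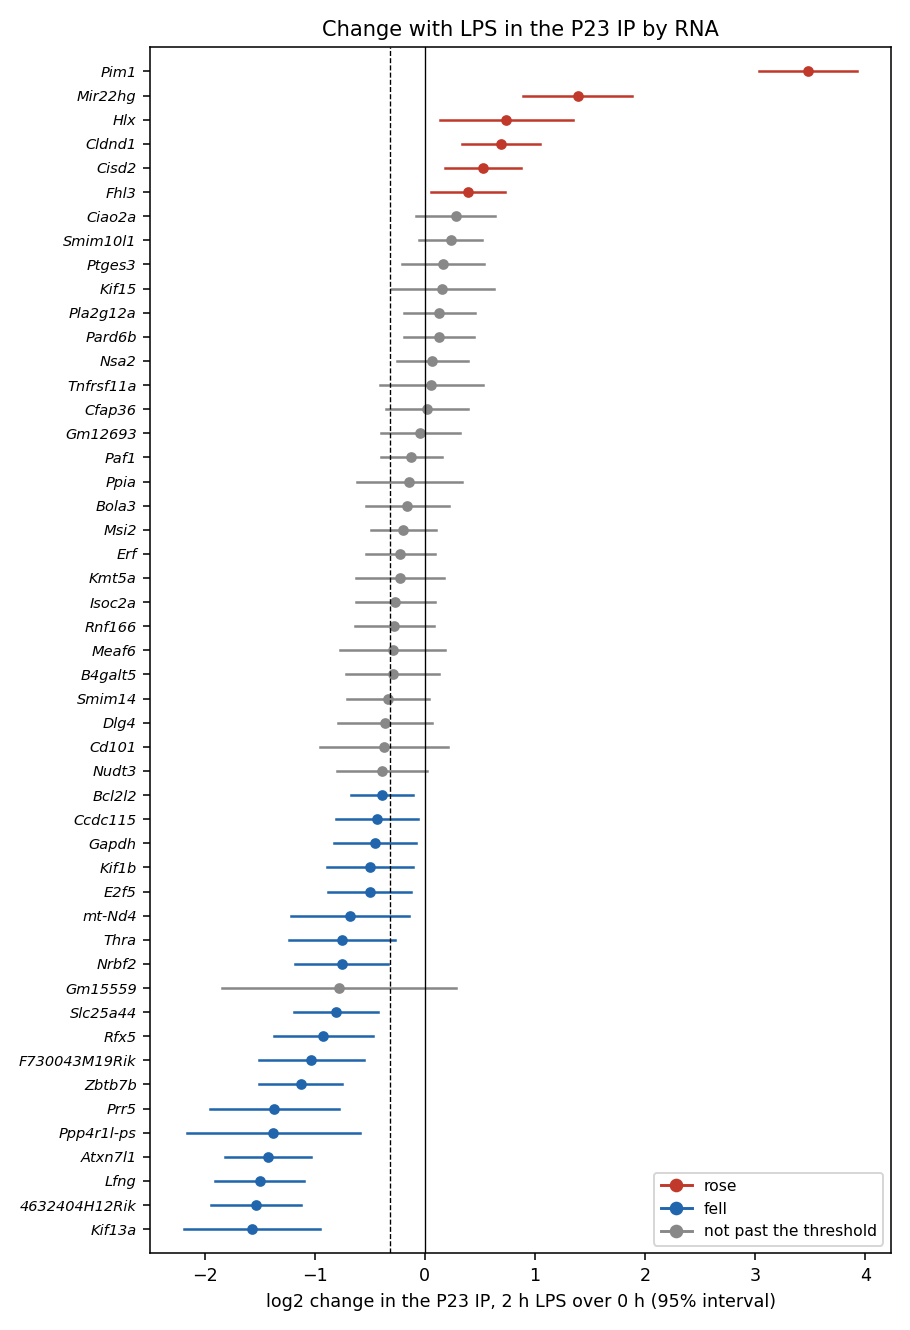
Log2 change in the P23 IP, 2 h of LPS over 0 h, for the RNAs shown, with 95% intervals derived from the edgeR test statistics. Red marks RNAs that rose, blue those that fell and grey those that did not pass; the dashed line is the median of the list at -0.32, and Gm16153, with no count at 2 h, and 2 RNAs not reported here are left out. Pim1 stands alone at 3.48, and the lowest shown, from Rfx5 down to Kif13a, lie between -0.92 and -1.57.

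Pim1 (ENSMUSG00000024014, chr17:29490753-29496112 of GRCm38) is a known target of LPS signaling in macrophages. It was at 77.0, 51.3 and 60.9 normalized counts in the P23 IPs of 0 h and at 556.1, 756.6 and 777.5 in those of 2 h. Every 2 h library lay far above every 0 h library. The log2 change was 3.48 (SE 0.21, adjusted p = 3.2e-10, edgeR). Pim1 took 0.448% to 0.577% of the list's counts at 0 h and 5.57% to 6.29% at 2 h, a share into which the size factors do not enter. The LUC IP gave a log2 change of 3.95 (SE 0.25), and the inputs, at 142 and 2866 raw counts, a log2 ratio of 4.45. The difference between the P23 and the LUC change was -0.47 and did not pass (unadjusted p = 0.18, edgeR).

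Mir22hg (chr11:75461539-75466676) is the host RNA of miR-22, a microRNA encoded within it. It was at 16.2, 24.2 and 22.6 normalized counts at 0 h and at 63.7, 57.2 and 48.1 at 2 h in the P23 IP, with no overlap. The log2 change was 1.39 (SE 0.23, adjusted p = 0.00012, edgeR). In the LUC IP it was 2.69, and in the inputs the log2 ratio was 1.58 (95% interval of 0.96 to 2.23, counting error only). The 2 mature products of the host RNA, from RefSeq for GRCm38, are shown because they identify the microRNA; capitals mark the seed, bases 2 to 8. The counted reads belong to the host RNA and say nothing of the mature forms.
mmu-miR-22-5p: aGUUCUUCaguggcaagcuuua
mmu-miR-22-3p: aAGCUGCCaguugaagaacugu

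Hlx mRNA (chr1:184727140-184732619), which encodes a homeobox transcription factor, had few reads, 11 to 16 raw counts per P23 library. It was at 14.9, 11.1 and 13.7 normalized counts at 0 h and at 25.5, 21.8 and 18.96 at 2 h. The groups did not overlap, and the log2 change was 0.74 (SE 0.29, adjusted p = 0.043, edgeR). The LUC IP gave 2.00, from 1 to 4 raw counts per library at 0 h and 9 or 10 at 2 h. The call was lost when replicate 2 or 3 of P23 at 0 h, or any one of the P23 2 h libraries, was left out (largest adjusted p of 0.16, edgeR). DESeq2, limma with trend and robust prior, the replicate block and the sum over the list took away the call as well.

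Cldnd1 mRNA, for a claudin-domain membrane protein, was at 71.6, 64.4 and 61.9 normalized counts at 0 h and at 95.6, 102.1 and 119.6 at 2 h in the P23 IP. Its log2 change of 0.69 (SE 0.17, adjusted p = 0.0025, edgeR) stood beside 1.08 in the LUC IP and 0.75 in the inputs. Cisd2 mRNA, for an iron-sulfur protein of the endoplasmic reticulum and outer mitochondrial membrane, was at 560.5, 436.8 and 437.1 at 0 h and at 632.6, 726.6 and 709.0 at 2 h. The log2 change came to 0.53 (SE 0.16, adjusted p = 0.013, edgeR). Cisd2 also rose in the LUC IP (0.61), while its log2 input ratio was 0.06 (95% interval of -0.12 to 0.23, counting error only). Fhl3 mRNA, for a LIM-domain protein, was at 316.1, 336.2 and 342.8 at 0 h and at 412.7, 446.3 and 446.4 at 2 h. At a log2 change of 0.39 (SE 0.16, adjusted p = 0.047, edgeR) it was the smallest rise called. Leaving out replicate 2 or 3 of P23 at 0 h took away the call of Cisd2 (largest adjusted p of 0.070, edgeR). Leaving out any one of the 6 P23 libraries, replicate 3 of LUC at 0 h or either LUC library of 2 h took away that of Fhl3 (largest adjusted p of 0.12, edgeR). So did DESeq2, limma with its default prior or with trend and robust prior, and the replicate block.

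**Figure D2:**
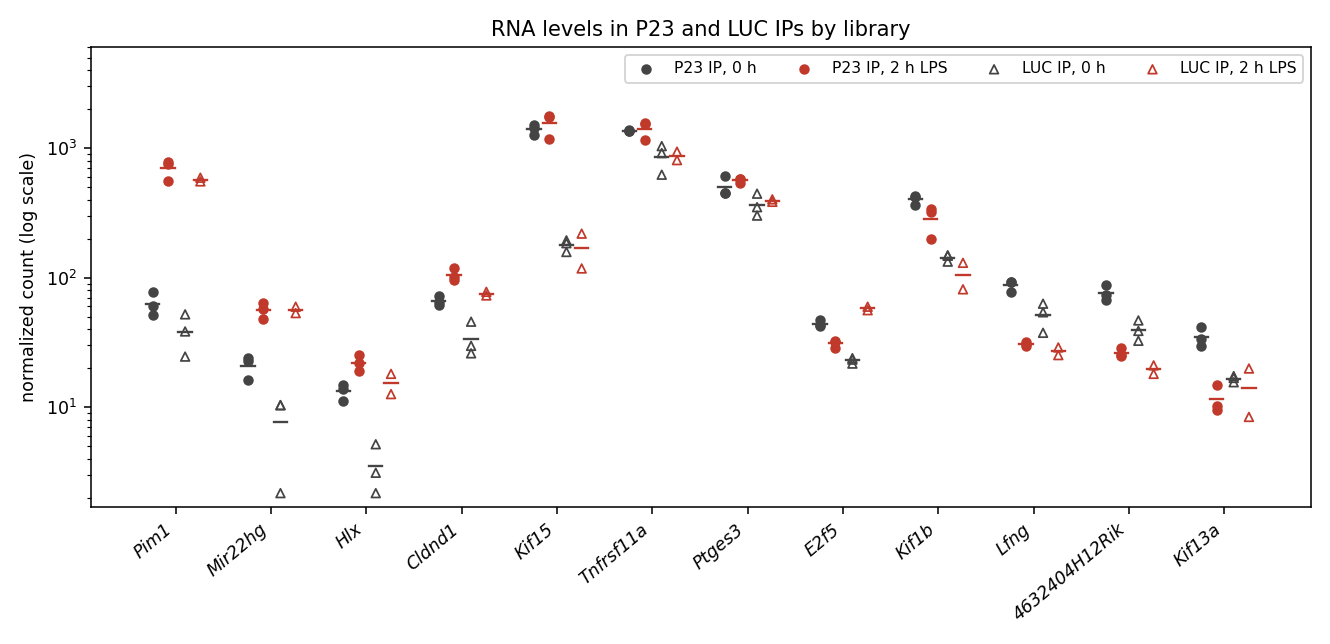
Normalized counts (log axis) of 12 RNAs in each IP library; filled circles are P23 IPs and open triangles LUC IPs, dark at 0 h and red at 2 h of LPS, and short bars are group means. In the P23 IP the 2 h points of Pim1 lie between 556.1 and 777.5, above 0 h points between 51.3 and 77.0, while those of Lfng lie near 30 against 77.5 to 93.3.

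Of the 3 kinesin mRNAs, which encode motor proteins that move along microtubules, 2 fell with P23 and 1 did not pass. Over all 52 RNAs 21 fell (40.4%) and 6 rose (11.5%). The counts in this small group and in those below were not tested against these shares. Kif15, a motor of the mitotic spindle, was at 1265.6, 1496.7 and 1436.9 normalized counts at 0 h and at 1174.3, 1759.4 and 1746.1 at 2 h. The groups overlapped, with P23 2 h replicate 1 below all others, and the log2 change was 0.16 (95% interval of -0.31 to 0.63, adjusted p = 0.54, edgeR). It was 0.32 without P23 2 h replicate 1, 0.06 without P23 2 h replicate 2 and 0.07 without P23 2 h replicate 3. The LUC IP gave -0.10 and the inputs -0.01. Kif15 took 9.48% to 13.1% of the list's counts at 0 h and 11.8% to 14.1% at 2 h. On 2 of the 3 scales made from the list Kif15 passed as higher, at a log2 change of 0.45 with TMM and 0.41 with median of ratios (adjusted p = 0.017 and 0.043, edgeR). With the sum over the list it was at 0.20 and did not pass (adjusted p = 0.25, edgeR).

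Kif13a (chr13:46749087-46929867), a kinesin of endosomal transport, was at 29.7, 41.3 and 33.4 normalized counts at 0 h and at 9.56, 15.0 and 10.2 at 2 h. The groups lay well apart, with a log2 change of -1.57 (SE 0.29, adjusted p = 0.00031, edgeR). The LUC IP gave -0.28, from 19.9 and 8.4 normalized counts at 2 h, and the inputs -0.22. The difference between the P23 and the LUC change did not pass after adjustment (-1.29, unadjusted p = 0.022, edgeR). Kif1b, which carries mitochondria and synaptic vesicle precursors, was at 366.0, 422.7 and 425.3 at 0 h and at 197.6, 337.5 and 320.9 at 2 h. Its log2 change was -0.50 (SE 0.19, adjusted p = 0.036, edgeR), close to that of the LUC IP (-0.45), and the call went when replicate 2 or 3 of 0 h or replicate 1 of 2 h was left out (largest adjusted p of 0.17, edgeR). Kif1b also lost its call with TMM (-0.21) and median of ratios (-0.25) over the list and in limma with its default prior.

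Tnfrsf11a, which encodes the receptor RANK of osteoclast precursors, was at 1369.6, 1355.8 and 1353.4 at 0 h and at 1147.3, 1575.7 and 1525.9 at 2 h. Its log2 change of 0.06 (95% interval of -0.41 to 0.53) was among the 3 nearest 0 for RNAs with a mean of 50 or more, with Cfap36 (0.02) and the processed pseudogene Gm12693 (-0.04). Cd101, an immunoglobulin superfamily receptor, had -0.37 and did not pass.

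Of the 6 mRNAs of other transcription factors and cofactors, 4 fell, Fhl3 rose and Erf, an ETS repressor, did not pass (-0.22). Zbtb7b, a zinc finger factor known from helper T cell development, was at 380.9, 293.9 and 323.1 normalized counts at 0 h and at 137.0, 168.7 and 148.8 at 2 h. The log2 change came to -1.13 (SE 0.18, adjusted p = 6.7e-05, edgeR), with -0.76 in the LUC IP and -0.55 in the inputs. Rfx5, a subunit of the factor that drives MHC class II genes, was at 71.6, 45.3 and 50.1 at 0 h and at 30.3, 29.9 and 26.3 at 2 h, a log2 change of -0.92 (SE 0.21). Beside it stood -0.63 in the LUC IP and -0.62 in the inputs. Thra, the thyroid hormone receptor alpha, was at 129.7, 117.8 and 98.2 at 0 h and at 54.2, 87.1 and 61.3 at 2 h. Its log2 change was -0.75 (SE 0.23), and the call was lost without P23 2 h replicate 1 (adjusted p = 0.064, edgeR). For Thra the LUC IP gave -0.72 and the inputs -0.25.

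E2f5 mRNA (chr3:14578641-14606309), for a repressor-type E2F factor, moved in opposite directions in the IPs. In the P23 IP it was at 43.2, 47.3 and 42.2 normalized counts at 0 h and at 28.7, 32.7 and 32.1 at 2 h. In the LUC IP it was at 21.7, 23.3 and 23.9 at 0 h and at 59.7 and 56.1 at 2 h. Within each IP the time points did not overlap, so E2f5 was lower after LPS with P23 and higher with LUC. The log2 change was -0.50 (SE 0.18, adjusted p = 0.044, edgeR) in the P23 IP and 1.31 (SE 0.21, adjusted p = 0.00014, edgeR) in the LUC IP, and the log2 input ratio was 0.21. The call of E2f5 with P23 was lost without any one of the 6 P23 libraries (largest adjusted p of 0.14, edgeR), where the log2 change stayed between -0.54 and -0.45, and on each of the 3 scales made from the list. DESeq2, limma with trend and robust prior and the replicate block took away this call too.

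Both mRNAs of Golgi glycosyltransferases had values below 0, and 1 of them fell. Lfng (chr5:140607320-140615545) was at 91.8, 77.5 and 93.3 normalized counts at 0 h and at 31.9, 29.9 and 30.6 at 2 h. The 2 h libraries lay close together and far below those of 0 h, with a log2 change of -1.50 (SE 0.19, adjusted p = 7.6e-06, edgeR). The LUC IP gave -0.90 and the inputs -1.28. B4galt5, an enzyme of lactosylceramide synthesis, had -0.29 and did not pass.

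In the group of survival, growth and signaling genes Pim1 rose, 3 of 6 fell and 2 did not pass. Prr5, a component of the mTORC2 kinase complex, was at 93.2, 52.3 and 69.7 normalized counts at 0 h and at 17.5, 27.2 and 36.5 at 2 h, a log2 change of -1.37 (SE 0.28). For Prr5 the LUC IP gave -1.09 and the inputs -1.01. Nrbf2, a regulator of the autophagy lipid kinase complex, was at 66.2, 60.4 and 57.9 at 0 h and at 47.8, 32.7 and 29.2 at 2 h, a log2 change of -0.75 (SE 0.20). These groups did not overlap, but the call of Nrbf2 was lost with TMM and with median of ratios over the list. For Nrbf2 the LUC IP gave -0.13 and the inputs -0.10. Bcl2l2, also known as Bcl-w, which protects cells from apoptosis, was at 213.4, 188.2 and 192.5 at 0 h and at 140.2, 163.3 and 148.8 at 2 h. Its log2 change was -0.39 (SE 0.13, adjusted p = 0.026, edgeR), and the call went when replicate 1 of 0 h or replicate 1 or 3 of 2 h was left out (largest adjusted p of 0.094, edgeR). Bcl2l2 also lost its call in DESeq2, with the replicate block, with TMM and with median of ratios. For Bcl2l2 the LUC IP gave -0.35 and the inputs -0.44. Nudt3, a hydrolase of diphosphoinositol polyphosphates, and Msi2, an RNA-binding protein of the Musashi family, had -0.39 and -0.19.

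Of the 5 mRNAs of iron-sulfur and mitochondrial proteins, Cisd2 rose, 2 fell and 2 did not pass. Slc25a44, a mitochondrial carrier of branched-chain amino acids, was at 171.5, 106.7 and 124.7 normalized counts at 0 h and at 68.5, 81.6 and 77.3 at 2 h, a log2 change of -0.81 (SE 0.18, adjusted p = 0.0015, edgeR). For Slc25a44 the LUC IP gave -0.35 and the inputs -0.57. The mitochondrially encoded mt-Nd4, a subunit of respiratory complex I, was at 1180.5, 602.9 and 632.5 at 0 h and at 431.8, 481.7 and 587.9 at 2 h. P23 0 h replicate 1 stood far above the other libraries for mt-Nd4. The log2 change was -0.68 (SE 0.25, adjusted p = 0.036, edgeR), and the call went when replicate 1 of 0 h or replicate 1 or 2 of 2 h was left out (largest adjusted p of 0.28, edgeR). In limma with its default prior or with array weights mt-Nd4 lost its call as well. For mt-Nd4 the LUC IP gave -0.74 and the inputs -0.35. Ciao2a and Bola3, both factors of iron-sulfur protein assembly, had 0.28 and -0.16.

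Atxn7l1 mRNA, for a paralog of the ataxin-7 subunit of a chromatin-modifying complex, was the 1 of 5 in the group of chromatin, elongation and ribosome assembly genes that fell. It was at 132.4, 130.8 and 149.3 normalized counts at 0 h and at 39.8, 51.7 and 61.3 at 2 h, a log2 change of -1.43 (SE 0.19, adjusted p = 7.6e-06, edgeR). The LUC IP gave -1.04 and the inputs -0.99. The other 4, Meaf6, Kmt5a, Paf1 and Nsa2, lay between -0.29 and 0.07 and did not pass, although Nsa2, a ribosome assembly factor, rose in the LUC IP (0.58). Rnf166, a ubiquitin ligase, had -0.28 with P23 and did not pass.

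Both mRNAs of the prostaglandin pathway gave values slightly above 0 and did not pass. Ptges3, which encodes P23 itself, was at 610.5, 449.9 and 452.8 normalized counts at 0 h and at 533.8, 581.0 and 576.2 at 2 h. The groups overlapped, with a log2 change of 0.16 (95% interval of -0.20 to 0.53), beside 0.12 in the LUC IP and 0.14 in the inputs. Pla2g12a, a secreted phospholipase, had 0.13. Pard6b, a cell polarity protein whose row the deposited table names Pard6a and whose symbol here follows its identifier, ENSMUSG00000044641, had 0.13 with P23 and rose in the LUC IP (0.73), and Dlg4, a synaptic scaffold, had -0.36.

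Gapdh, an enzyme of glycolysis, and Ppia, the protein folding enzyme cyclophilin A, are common reference genes. Gapdh was at 160.7, 110.7 and 152.2 normalized counts at 0 h and at 94.0, 122.5 and 90.4 at 2 h. The groups overlapped, but its log2 change of -0.45 (SE 0.17, adjusted p = 0.042, edgeR) passed. For Gapdh the LUC IP gave -0.20 and the inputs -0.07. Leaving out replicate 1 or 3 of either time point took away the call (largest adjusted p of 0.15, edgeR), and so did DESeq2, limma with its default prior or with array weights, TMM, median of ratios and the replicate block. Ppia had -0.14 (95% interval of -0.62 to 0.34), which turned to 0.17 with TMM over the list. Both genes have processed pseudogene copies, as does the parent of Gm12693, and reads may be split among such copies or lost. Ccdc115, a factor of proton pump assembly, was at 368.7, 283.8 and 243.6 at 0 h and at 207.1, 202.7 and 249.4 at 2 h. These groups overlapped too, and the log2 change was -0.44 (SE 0.18, adjusted p = 0.049, edgeR). Leaving out replicate 1 or 2 of either time point, or either LUC library of 2 h, took away the call (largest adjusted p of 0.25, edgeR). The call of Ccdc115 was lost as well in DESeq2, in each of the 3 limma fits, with TMM, with median of ratios and with the replicate block. For Ccdc115 the LUC IP gave -0.06 and the inputs -0.14. The other 4 mRNAs of diverse function, Smim14, Isoc2a, Cfap36 and Smim10l1, lay between -0.34 and 0.23 and did not pass.

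Of the 7 non-coding and pseudogene transcripts, Mir22hg rose, 4 fell and 2 did not pass. The long non-coding RNA 4632404H12Rik (chr3:89767511-89773240) was at 72.9, 88.6 and 67.8 normalized counts at 0 h and at 25.5, 28.6 and 24.8 at 2 h with P23. Its log2 change was -1.53 (SE 0.19, adjusted p = 7.6e-06, edgeR), and it fell in the LUC IP as well (-1.03). Its log2 input ratio was 0.08 (95% interval of -0.53 to 0.69, counting error only), from 48 and 47 raw counts. F730043M19Rik, a non-coding RNA from the promoter region of Atxn7l1, was at 54.0, 56.4 and 49.1 at 0 h and at 30.3, 24.5 and 23.3 at 2 h, a log2 change of -1.03 (SE 0.22). Beside it stood -0.47 in the LUC IP and -0.98 in the inputs, from 87 and 41 raw counts. The pseudogene Ppp4r1l-ps was at 24.3, 24.2 and 24.6 at 0 h and at 9.56, 10.9 and 7.29 at 2 h, a log2 change of -1.38 (SE 0.37). For Ppp4r1l-ps the LUC IP gave -0.45 and the inputs -0.68, from 38 and 22 raw counts. Gm16153 had 3, 12 and 15 raw counts at 0 h and 0 in each library at 2 h. The inputs held 6 and 0 raw counts of it, and the LUC IPs 0 or 1 at 0 h and 0 at 2 h. Against a floor of 3 counts over the 2 h group, it was at least 7.44-fold lower in the P23 IP at 2 h, with the error of the 0 h counts left out. The fall passed (adjusted p = 0.0014, edgeR), but the choice of the list at 0 h favors it. Gm15559 had 2 to 10 raw counts per P23 library and did not pass (adjusted p = 0.20, edgeR).

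Strand was not used in counting, so reads from overlapping genes cannot be told apart or may be lost. On the other strand, Pim1 is overlapped by Gm26885, E2f5 by 1810022K09Rik, Zbtb7b by Gm15417, Rfx5 by B230398E01Rik, Thra by Nr1d1, Gapdh by Iffo1, Kif13a by Gm22960 and Gm48250, F730043M19Rik by Gm16267 and Gm16153 by Rmnd1. Atxn7l1 is overlapped there by Atxn7l1os1 and Atxn7l1os2. Of the RNAs that did not pass, Gm15559 is overlapped there by Pus1 and Nsa2 by Fam169a and Gfm2. Rnf166, Smim14 and Msi2 have overlaps on the other strand too. On the same strand, Mir22hg is overlapped by Tlcd2, Kif13a by Gm24620, Kif15 by Gm47148, Bcl2l2 by Gm20521, Ccdc115 by Gm28306 and mt-Nd4 by mt-Nd4l. Nudt3, Rnf166, Smim14, Smim10l1 and Msi2, which did not pass, have overlaps there too. Whole gene spans of GENCODE M21 were compared, not exons.

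Of the 27 RNAs called with P23, 11 were also called in the same direction in the control IP. The LUC test called 8 RNAs higher (15.4%) and 6 lower (11.5%) at 2 h, or 26.9% in either direction, against 51.9% with P23. Of the 6 RNAs that rose with P23, 5 also rose with LUC, which is 83.3% of the former and 62.5% of the latter. Of the 21 that fell with P23, 6 also fell with LUC (28.6% of the former and 100% of the latter), among them Atxn7l1, 4632404H12Rik, Lfng, Zbtb7b and Prr5, and 14 did not pass with LUC. All fallers but E2f5, 20 of 21, had a LUC change below 0, as had 32 of all 52 RNAs, and all 6 risers had one above 0. Without LUC 2 h replicate 2, 1 RNA fell with LUC, and without LUC 0 h replicate 2, 11 did.

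The test of the difference between the P23 and the LUC change called 0 RNAs higher and 1 lower (1.92%), the E2f5 mRNA described above. At an unadjusted p under 0.05 there were 0 and 5. The difference for E2f5 was -1.81 (SE 0.27, adjusted p = 0.00022, edgeR). DESeq2 also called 0 higher and 1 lower. The median difference over the list was -0.25 (-0.37 to -0.16 over the fits that left out 1 library or both replicates 1 of P23, the upper value without P23 0 h replicate 1), and the choice of the list at 0 h favors a value below 0. A p that misses the threshold with 3 P23 and 2 or 3 LUC libraries per time point does not show that the changes are equal.

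Across 51 RNAs the P23 change and the LUC change had a Pearson r of 0.88 (Spearman rho 0.78), and the P23 change and the log2 input ratio an r of 0.89 (rho 0.79). Without Pim1 these r were 0.80 and 0.81 over 50 RNAs. The RNAs are not independent replicates, and the values share RNA length, base composition and the method of scaling. All 6 RNAs that rose with P23 had an input ratio above 0. Of the 20 fallers with counts in both inputs, 17 had one below 0, and those above 0 included 4632404H12Rik and E2f5. The median input ratio over all 51 RNAs was 0.01. The 95% interval (counting error only) included 0 for some of the RNAs counted here, such as Hlx (-0.02 to 0.99), Cisd2 (-0.12 to 0.23) and Kif1b (-0.28 to 0.07). For others, such as Pim1 (4.20 to 4.70), it did not. With 1 input library per time point, a difference between the P23 change and the input ratio has no test.

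**Figure D3:**
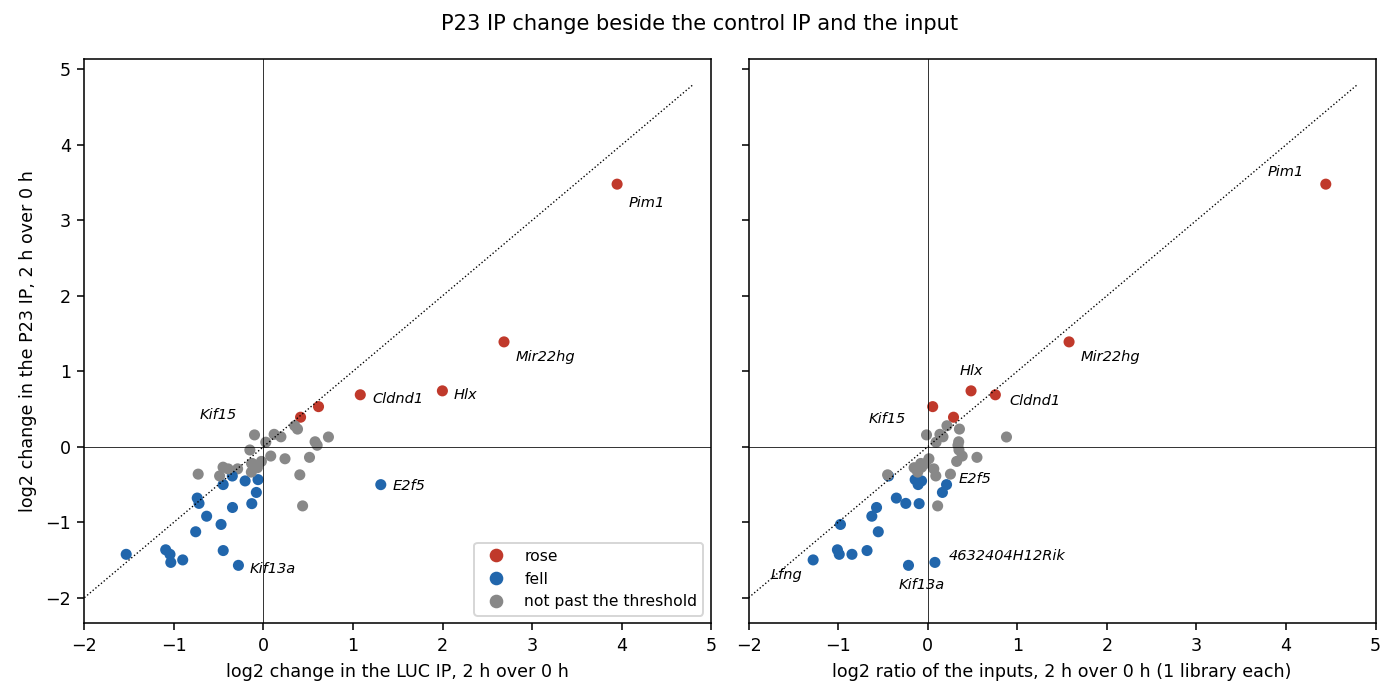
Log2 change in the P23 IP against that in the LUC IP (left) and against the log2 ratio of the single inputs (right), 2 h over 0 h, for 51 RNAs; colors give the P23 call and the dotted line equal values. Pim1 lies at the upper right in both panels; on the left E2f5 stands to the right of the other fallers (1.31 with LUC, -0.50 with P23), and on the right 4632404H12Rik lies at an input ratio of 0.08 and a P23 change of -1.53.

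The study derived a U/G-rich motif from the 3′UTRs of these mRNAs, so U/G-only hexamers were counted in the RefSeq 3′UTRs of the 44 mRNAs with one. The longest RefSeq 3′UTR of each gene was taken, and which form these cells hold was not examined. U/G-only hexamers began at a median of 4.14% of positions in the 5 mRNAs that rose, 3.40% in the 16 that fell and 4.33% in the 23 that did not pass, with ranges that overlapped widely. The median was 3.90% over all 44 and 2.91% over the 19272 RefSeq genes with a 3′UTR, whose median length was 834 nt against 1441 nt here. A 30-nt window with 18 or more such hexamers was found in 14 of the 44 (31.8%) and in 13.7% of all RefSeq genes. The motif came from these same mRNAs, and a longer 3′UTR offers more windows, so the contrast with all genes is no test. Across the 44 mRNAs the share and the P23 change had an r of 0.22 (rho 0.10), and without Pim1 an r of 0.00 over 43.

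The richest 30-nt window of 6 mRNAs is shown because these span the range of the change, from the rise of Pim1 and Hlx through Tnfrsf11a and Kif15, which did not pass, to the falls of Atxn7l1 and Lfng. The sequences are those of RefSeq on GRCm38.p6, read 5′ to 3′ on the strand of the gene with T for U, and capitals mark bases that lie in a U/G-only hexamer (6 bases, each G or T).
Pim1, chr17:29495586-29495615, + strand: TGTGTTGGGGGTTTGGTTTGGTTTTTTGTT
Hlx, chr1:184727439-184727468, - strand: ctggacTTTGTGcctactttaaGTTGGTGG
Tnfrsf11a, chr1:105845352-105845381, + strand: TGGTTTTGGTTTTGTTTcaTTTTTTGTTTT
Kif15, chr9:123018411-123018440, + strand: tattttaTTTTTTTTTTTTTTGGTTTTTTG
Atxn7l1, chr12:33250721-33250750, + strand: caTGTGTTGaaaacaaatatttaTTGTGTG
Lfng, chr5:140615174-140615203, + strand: aGGTGGGGGGTGGTTGTTTTcTGGGGTGGG
The window of Pim1 is U/G-only over its full length, yet Lfng, which fell, holds long U/G runs as well, at 18 hexamers in its window. Atxn7l1, which fell, and Hlx, which rose, hold 4 each. A match of this kind describes the sequence and does not by itself show binding.

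**Figure D4:**
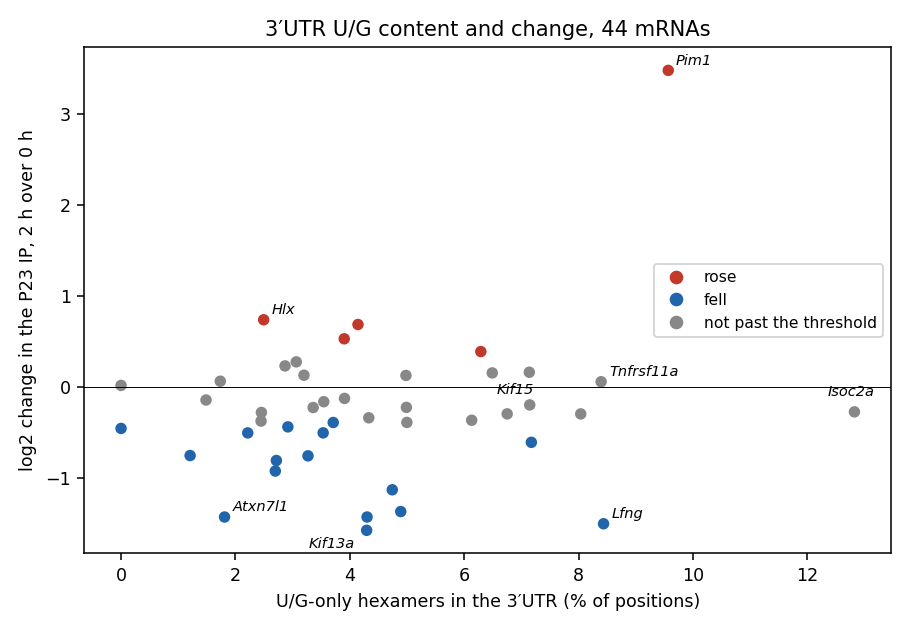
Share of 3′UTR positions at which a U/G-only hexamer begins (percent) against the log2 change in the P23 IP, 2 h over 0 h, for 44 mRNAs; colors give the P23 call. Pim1, which rose, lies at 9.57%, and Lfng, which fell, at 8.43%.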

How the data were processed

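RNA of P23 IPs, LUC IPs and inputs was sequenced by the study. The authors trimmed reads with Trimmomatic 0.33, checked them with FastQC 0.11.2, mapped them with TopHat2 2.0.14 to GRCm38, and made the deposited raw counts per gene with HTSeq 0.6.1 (Ensembl 83, no strand). The deposited log2 values are variance-stabilized by the authors. Deposited columns of their edgeR fold changes, p-values and FDR for IP and input comparisons were not used. All 13 libraries were mapped by column name.

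Size factors were recovered from the variance-stabilized values, which they fit to within 1e-06. edgeR 4.0.16 in R 4.3.3 compared 4 group means over 11 IP libraries. Its test gives no SE, so SEs and 95% intervals were derived from the log2 change and the test statistic. They need not match the p-values exactly. Input intervals are exact Clopper-Pearson intervals at 95%. Alternatives were DESeq2 1.42.0, limma 3.58.1, 3 scales over the list, a filter at a mean of 20 normalized counts, a replicate block and leaving out libraries. P-values rest on the spread within groups over the 11 IP libraries, P23 and LUC together. They take no account of the choice of the list at 0 h. Positions are from GENCODE M21, with all 52 RNAs matched. Members and role lists were chosen with earlier results of these data known. Named were all called RNAs, the 5 largest changes each way, the 3 nearest 0, RNAs called with LUC or in the difference, and Kif15, Ptges3 and Ppia; others stand by role group. The values of 2 RNAs that this rule covers are not reported here.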

Additional observations from a re-analysis of the deposited data

Results flagged for a closer look

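E2f5 mRNA was flagged because its change with LPS differed between the antibodies in the test of that difference. The P23 change minus the LUC change was -1.81 on the log2 scale (adjusted p = 0.00022, edgeR), with all 3 P23 libraries of 2 h below those of 0 h and both LUC libraries of 2 h above those of 0 h. The LUC side rests on 2 libraries at 2 h. The LUC change was 1.31 and the P23 change -0.50, and the P23 fall kept its call in 9 of 23 alternatives. The choice of the list at 0 h favors a difference below 0.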

How the results depend on the processing

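Scale set the balance of the calls in the P23 IP, by construction of the scales that centre the list. TMM over the 52 RNAs gave 14 higher at a median of -0.017 and median of ratios 13 at -0.052, against 6 at -0.32, while the lower count, 21, was 15 on both. The median difference between the IPs was then -0.058 and -0.044. Changes that had not passed turned above 0 with TMM for Ppia (0.17), Meaf6 (0.021), Paf1 (0.18), Bola3 (0.14), Isoc2a (0.037), Kmt5a (0.083), Erf (0.084), Rnf166 (0.030), Gm12693 (0.28), Msi2 (0.12) and B4galt5 (0.012), of which Gm12693 passed. With median of ratios they did so, without passing, for Ppia (0.13), Paf1 (0.14), Bola3 (0.11), Isoc2a (0.0021), Kmt5a (0.049), Erf (0.049), Gm12693 (0.24) and Msi2 (0.086). Gm12693 was also at 0.028 with the sum over the list and 0.11 with array weights. The sum over the list gave 14 lower in the LUC IP, and array weights in limma gave a P23 median of -0.20 and 3 RNAs lower in the difference between the IPs (E2f5, Kif13a and Mir22hg, with Gm16153 left out); the cause was not tested.

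Leaving out single IP libraries, or P23 0 h replicate 1 with P23 2 h replicate 1, gave 3 to 6 higher and 14 to 21 lower in the P23 IP at medians of -0.41 to -0.16, 5 to 9 higher and 1 to 11 lower in the LUC IP, and 1 or 2 lower in the difference. The LUC median lay between -0.18 and -0.067, the latter without LUC 0 h replicate 1. The P23 median was -0.22 without P23 0 h replicate 1, -0.41 without P23 2 h replicate 2 and -0.16 without both replicates 1, and the higher count was 3 without P23 0 h replicate 2 or 3. Some changes that did not pass crossed 0 there: Ppia (-0.34 to 0.050), Meaf6 (-0.45 to 0.10), Cfap36 (-0.15 to 0.18), Isoc2a (-0.40 to 0.0066), Kmt5a (-0.39 to 0.024), Nsa2 (-0.051 to 0.23), Gm12693 (-0.16 to 0.22) and Tnfrsf11a (-0.024 to 0.20). In the LUC IP 3 fell without LUC 2 h replicate 1, 1 without LUC 2 h replicate 2 and 11 without LUC 0 h replicate 2.

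Whether the replicate numbers pair the libraries was not settled. Same-numbered P23 libraries deviated from their group means with r of -0.15, 0.09 and -0.21 over 48 RNAs, and other pairs with r of -0.27 to 0.36. Deviations within a group of 3 sum to 0, so these r cannot decide the question. The replicate block gave 4 higher and 17 lower in the P23 IP, and 3 higher and 15 lower with the P23 libraries alone, a setting added after seeing the data. DESeq2 gave 4 and 17, and limma 5 and 17. No RNA called in the P23 IP by edgeR on the size factors changed direction under any alternative run. Counts were low for Hlx, Ppp4r1l-ps, Gm15559 and Gm16153.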
